A study of Homo sapiens with 12 samples.

Results

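The genes described are 4 CDC-like kinases, CLK1 to CLK4, and 6 splicing factors rich in arginine and serine: SRSF2, SRSF3, SRSF5, SRSF6, SRSF7 and TRA2A. They are the 10 rows of the count table, of 60664 in all, whose Ensembl identifier belongs to these symbols, and all 10 were among the 17349 genes kept by the filter on low counts. Poly(A) RNA was counted in 2 human leukaemia cell lines, each in control culture and after 24 h with 1000 ng/ml ADI-PEG20, with 3 libraries in each of the 4 groups. TOM-1 is a line of B-cell acute lymphoblastic leukaemia with the Philadelphia chromosome, which fuses BCR to ABL1, and RS4;11 is a line of the same disease with a rearranged KMT2A gene. ADI-PEG20 is a pegylated arginine deiminase, which turns arginine into citrulline and so takes arginine away from the cells. Both lines are labelled wild type and were grown in RPMI medium with serum. Each kind of leukaemia was thus represented by 1 line, so a difference between the lines cannot be told apart from a difference between these 2 cultures. The labels do not say whether the 3 libraries of a group came from separate cultures, so p-values measure the spread between these libraries, which may be technical.

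CLK kinases phosphorylate serine, threonine and tyrosine, and their best known substrates are the SR proteins, which bind exonic sequences of pre-mRNA through RNA recognition motifs and recruit the spliceosome through a tail of arginine-serine dipeptides. SRPK kinases phosphorylate that tail in the cytoplasm, transportin-SR carries the protein into the nucleus, and CLKs phosphorylate it further and release SR proteins from nuclear speckles to sites of transcription. Several SR protein genes and the CLK genes carry alternative exons or retained introns that lower the yield of productive mRNA. Counts summed over a gene do not separate these forms.

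Total counts ran from 18958144 to 35956959 per library, and each member had between 412 and 17985 counts in a library. TOM-1 control replicate 3 stood apart. Only 14963 genes had a read there, where other libraries had 19857 to 21997, and ribosomal protein genes took 19.96% of its counts against 5.95% to 9.998% elsewhere. Its log-scale correlation with the other TOM-1 control libraries was at most 0.926, against at least 0.9753 between other libraries of 1 group. The members' tests that use this library are given with and without it, and values of other genes also without it where it moved them by more than 1.5 times. All 8 markers of the B lineage were detected in every group, at summed levels of 1911 to 2782 CPM (counts scaled to library size). HOXA9 and MEIS1, which KMT2A fusions switch on, were at 0 counts in every TOM-1 library and summed to between 140.1 and 159 CPM in RS4;11. Of markers of other cell types, the 5 erythroid genes summed to at most 0.496 CPM in a library and the 5 myeloid genes to at most 26.7 CPM. The T cell list summed to 123 to 210.2 CPM in TOM-1 and 424 to 479 CPM in RS4;11, nearly all of it TRAC, with CD3D, CD3E and CD3G at 0.0797 CPM or less on average in every group. The stromal list summed to 2.69 to 11.5 CPM in TOM-1 and 32.5 to 45.9 CPM in RS4;11. Their part in the differences between the lines was not tested.

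ADI-PEG20 moved 8 of the 10 genes in TOM-1 and none of them past the threshold in RS4;11. In TOM-1 the kinases CLK1 and CLK4 rose, by 1.86-fold and 2.03-fold, while CLK2 and the SR factors SRSF2, SRSF3, SRSF5, SRSF6 and SRSF7 fell. The threshold was a Benjamini-Hochberg adjusted p of 0.05 in the quasi-likelihood F test of edgeR, fitted to all 12 libraries. Of all tested genes, 31.9% passed it in TOM-1, 15.9% higher and 15.9% lower. Without TOM-1 control replicate 3 the same test called the same 8 members, 2 higher and 6 lower, against 41.6% of 18321 genes, 21.8% higher and 19.8% lower. Levels are CPM after TMM scaling of the libraries, in the order of replicates 1, 2 and 3, and differences are log2 fold changes with their standard error (SE).

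CLK1 (ENSG00000013441; chromosome 2, 200853009 to 200864744, minus strand; GENCODE 29 on GRCh38), a kinase that phosphorylates SR proteins and regulates the splicing of its own transcript, was at 108, 103 and 85.5 CPM in TOM-1 control and 170.1, 185 and 197 CPM with ADI-PEG20. Every treated library was above every control library. The log2 fold change was 0.90 (SE 0.14, edgeR adjusted p = 7.10e-04), and 0.80 (edgeR adjusted p = 1.05e-06) without TOM-1 control replicate 3. CLK4 (ENSG00000113240; chromosome 5, 178602664 to 178630615, minus strand), the closest relative of CLK1 in the family, was the lower of the pair in level and rose by a like amount. It went from 26.3, 23.1 and 24.7 CPM to 47.6, 50.7 and 52.2 CPM. The groups did not overlap, and TOM-1 control replicate 3 lay between the other control libraries. The log2 fold change of CLK4 was 1.02 (SE 0.14, edgeR adjusted p = 2.07e-04), and it was 1.02 (edgeR adjusted p = 5.56e-07) without that library.

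CLK2 (ENSG00000176444; chromosome 1, 155262868 to 155278491, minus strand), a family member that also phosphorylates SR proteins, went the other way. It was at 61.0, 73.6 and 64.8 CPM in TOM-1 control and 50.6, 48.4 and 46.0 CPM with ADI-PEG20, with no overlap. It fell by 27.3%, and its log2 fold change was -0.46 (SE 0.13, edgeR adjusted p = 0.0216). This call rested on a small margin: without TOM-1 treated replicate 3 the edgeR adjusted p was 0.0602, and with control replicate 3 left out instead it was 9.29e-04. CLK3 (ENSG00000179335; chromosome 15, 74598500 to 74645414, plus strand) was at 67.4, 77.3 and 87.5 CPM in control and 74.2, 75.1 and 77.4 CPM with ADI-PEG20. Its treated libraries lay within the range of the control libraries. The interval of its log2 fold change ran from -0.30 to 0.23 (95%), so a change as large as that of CLK1, CLK2 or CLK4 lay outside it. Its log2 fold change without TOM-1 control replicate 3 was 0.06 (edgeR adjusted p = 0.633). The 4 kinases therefore spread out in treated TOM-1: 2 higher, 1 lower, and 1 with no detected difference.

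**Figure D1:**
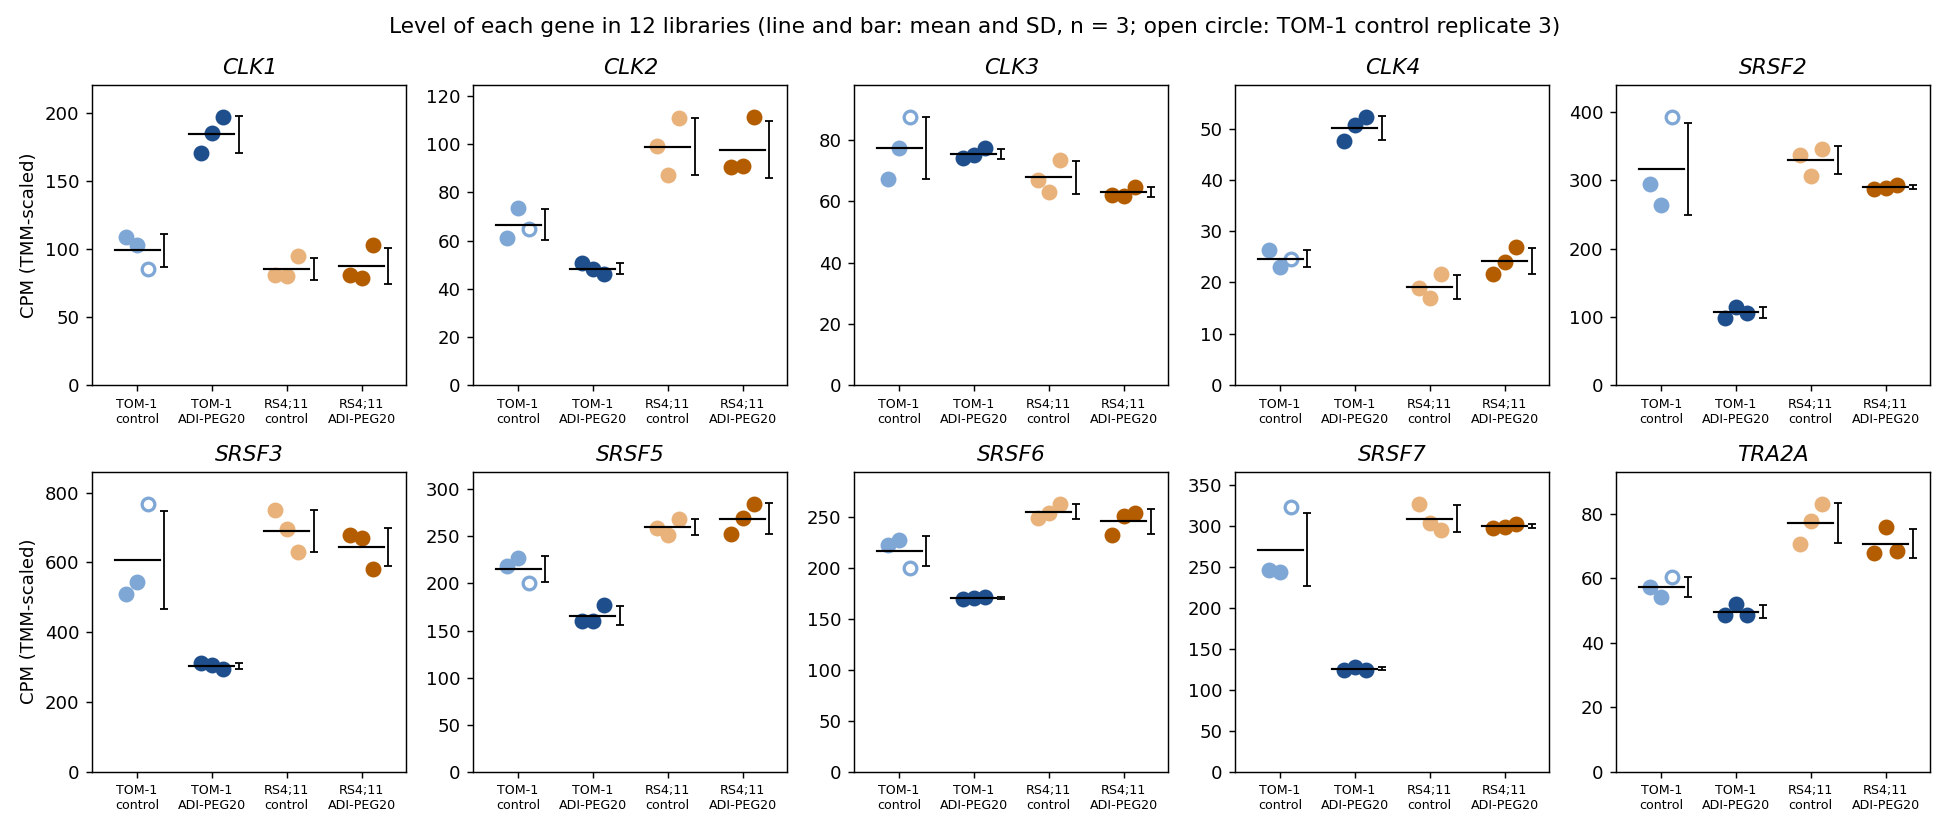
Levels of the 10 genes in every library, in CPM, with 1 panel per gene and each vertical axis starting at 0. Points are libraries, with TOM-1 control replicate 3 as an open circle, horizontal lines are group means, and bars are the SD (n = 3). CLK1 and CLK4 are higher in the treated TOM-1 libraries than in any other library. CLK2, SRSF2, SRSF3, SRSF5, SRSF6, SRSF7 and TRA2A are lower there than in any other library, though TRA2A did not pass the threshold.

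The make-up of the CLK family was then compared between the groups. Expressed as shares of the summed CPM per kilobase of exonic length, CLK1 made up 43.3% ± 3.88 of the 4 kinases in TOM-1 control and 60.5% ± 1.99 with ADI-PEG20 (SD, n = 3). CLK2 made up 41.0% ± 2.98 and then 22.5% ± 1.95. With the length of the longest transcript in place of the exonic length, CLK1 made up 44.3% and CLK2 35.4% in TOM-1 control. The control shares without TOM-1 control replicate 3 were 45.0% for CLK1 and 40.3% for CLK2. CLK4 went from 7.07% to 10.8% of the sum and CLK3 from 8.62% to 6.29%, and from 7.79% without TOM-1 control replicate 3. In each case the groups did not overlap, and the exact two-sided permutation test gave p = 0.1, the smallest that 3 libraries against 3 allow. In RS4;11 CLK2 led in both groups: it made up 54.8% ± 1.26 in control and 53.6% ± 0.185 with ADI-PEG20, and CLK1 33.5% ± 1.23 and 34.0% ± 0.984 (SD, n = 3). CLK4 took 4.92% and then 6.17% of the sum in RS4;11, without overlap and again with an exact permutation p of 0.1. CLK3 took 6.76% and then 6.25%. The RS4;11 groups overlapped for CLK1, CLK2 and CLK3, with exact permutation p of 0.6, 0.3 and 0.3. The shares depend on the length used for each gene, and CLK3 has 20.4 kb of exonic sequence, against 3.67 to 7.92 kb for the other kinases.

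**Figure D2:**
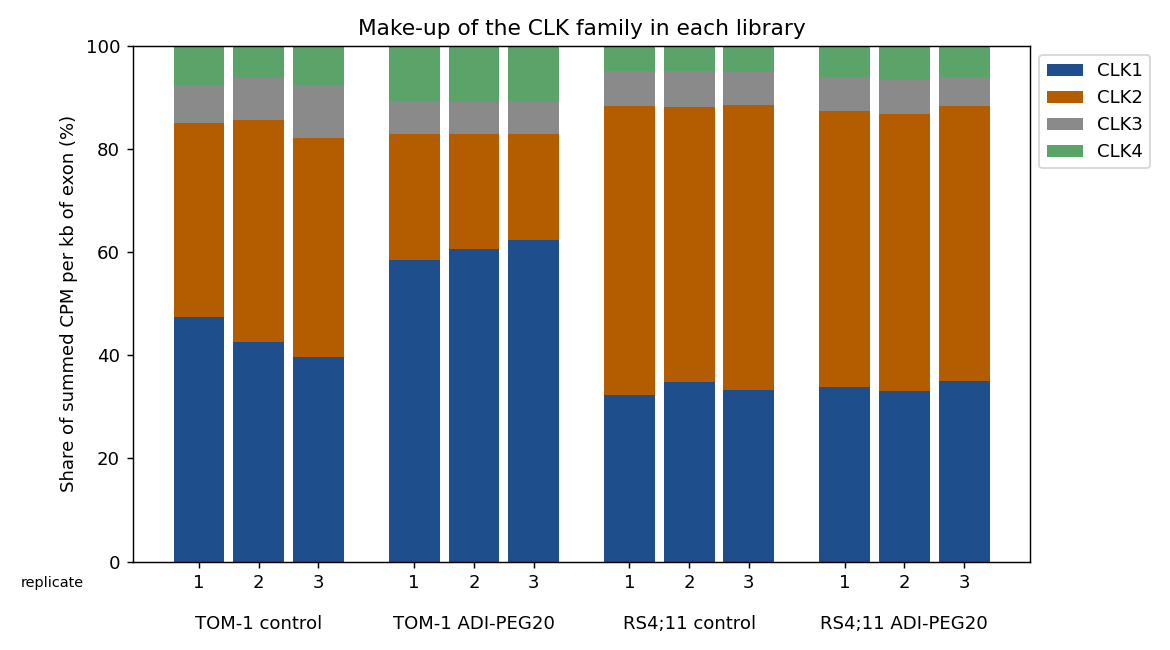
Share of each CLK gene in the summed CPM per kilobase of exonic length of the 4 CLK genes, in percent, for each of the 12 libraries. The share of CLK1 is 60.5% on average in treated TOM-1 and between 33.5% and 43.3% in the other groups.

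Among the SR factors, SRSF2, SRSF7 and SRSF3 fell most in TOM-1. SRSF2 (ENSG00000161547; chromosome 17, 76734115 to 76737374, minus strand), an SR protein that binds exonic enhancers and also acts in transcription elongation, was at 294, 264 and 393 CPM in control and 98.8, 114 and 106 CPM with ADI-PEG20. The lowest control library was more than 2 times the highest treated one. The log2 fold change was -1.57 (SE 0.14, edgeR adjusted p = 1.84e-05), and -1.39 (edgeR adjusted p = 8.67e-13) without TOM-1 control replicate 3, the highest of the control libraries. SRSF2 shares 36.7% of its exonic bases with MFSD11, a gene on the opposite strand, and the use of strand in counting is not given in the sources used here. MFSD11 itself was at 23.4 to 39.2 CPM over all libraries and its log2 fold change in TOM-1 was -0.23 (edgeR adjusted p = 0.232), and -0.08 (edgeR adjusted p = 0.609) without TOM-1 control replicate 3.

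SRSF7 (ENSG00000115875; chromosome 2, 38743599 to 38751494, minus strand), an SR protein with a zinc knuckle, was at 246, 244 and 322 CPM in TOM-1 control and 124, 128 and 124 CPM with ADI-PEG20. The treated libraries agreed closely with each other, while control replicate 3 stood above the other controls. The log2 fold change was -1.11 (SE 0.12, edgeR adjusted p = 6.23e-05), and -0.97 (edgeR adjusted p = 2.00e-11) without that library. SRSF3 (ENSG00000112081; chromosome 6, 36594353 to 36605600, plus strand), the smallest of the classical SR proteins, was at 511, 543 and 768 CPM in control and 310.5, 307 and 295 CPM with ADI-PEG20. Its control replicate 3 was again the highest of the group. The log2 fold change was -0.997 (SE 0.15, edgeR adjusted p = 5.15e-04) with all libraries and -0.80 (edgeR adjusted p = 9.10e-09) without it. For each of SRSF2, SRSF3 and SRSF7 the library with the high share of ribosomal protein counts was the highest control, and the fall was smaller without it. Ribosomal protein genes also took a lower share of counts in treated TOM-1 (5.95% to 6.11%) than in TOM-1 control replicates 1 and 2 (9.30% and 9.04%). The part of these shares in the results was not tested.

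SRSF5 and SRSF6 fell less. SRSF5 (ENSG00000100650; chromosome 14, 69726900 to 69772005, plus strand), an SR protein with a pair of RNA recognition motifs, was at 219, 227 and 200.2 CPM in TOM-1 control and 159.7, 160.1 and 177 CPM with ADI-PEG20. SRSF6 (ENSG00000124193; chromosome 20, 43457928 to 43464247, plus strand), an SR protein with a long arginine-serine tail, was at 223, 228 and 199.6 CPM and then 169.7, 170.2 and 172 CPM. In both genes control replicate 3 was the lowest control library, and the groups did not overlap. The log2 fold changes were -0.38 (SE 0.10, edgeR adjusted p = 0.0149) for SRSF5 and -0.34 (SE 0.10, edgeR adjusted p = 0.0185) for SRSF6. Without TOM-1 control replicate 3 they were -0.43 and -0.40, with edgeR adjusted p of 1.41e-05 and 8.86e-06. Without TOM-1 treated replicate 1 neither passed, with edgeR adjusted p of 0.0625 for SRSF5 and 0.0634 for SRSF6.

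TRA2A (ENSG00000164548; chromosome 7, 23504780 to 23532041, minus strand), the human homologue of the fly splicing regulator transformer-2, with an arginine-serine region on both sides of its RNA recognition motif, did not pass the threshold. It was at 57.5, 54.2 and 60.4 CPM in TOM-1 control and 48.5, 52.0 and 48.6 CPM with ADI-PEG20. All treated libraries were below all control libraries, yet the log2 fold change was -0.21 with a 95% interval of -0.45 to 0.04 (edgeR adjusted p = 0.187). Without TOM-1 control replicate 3 it was -0.17 (edgeR adjusted p = 0.133). In all, 9 of the 10 genes had no overlap between treated and control TOM-1 libraries, against 46.2% of all tested genes, and 9 of 10 again without TOM-1 control replicate 3, against 59.0%. The median log2 fold change was 0.43 over the kinases and -0.69 over the SR factors, against 0.05 over all tested genes. Without that library the medians were 0.43 and -0.61, against 0.0017 over all genes. In both fits the kinase median lay between the rises of CLK1 and CLK4 and the values of CLK2 and CLK3, near no single kinase. With offsets for transcript length and all libraries, the medians were 0.17 and -0.86, against -0.02 over all genes. In these bulk samples, fewer cells of a type and less RNA per cell cannot be told apart.

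In RS4;11 none of the 10 genes was called with edgeR, over the 12 libraries or the 11 left without TOM-1 control replicate 3, nor with DESeq2 or with limma's sample quality weights. Of all tested genes, 0% passed with all libraries and 0.317% without that library. Unadjusted p-values under 0.05 were reached by 1 member, CLK4, in edgeR with all libraries, against 1.87% of all tested genes. Without TOM-1 control replicate 3 they were reached by 2, CLK4 and SRSF2 (edgeR unadjusted p = 0.00719 and 0.00726). DESeq2 gave 1 such member and the quality weights gave 2. The share over all genes was not taken for these further counts, so they are no result about the members. CLK4 was at 18.9, 17.0 and 21.6 CPM in RS4;11 control and 21.7, 24.0 and 26.9 CPM with ADI-PEG20. The lowest treated library was just above the highest control library. Its log2 fold change was 0.34 with a 95% interval of 0.04 to 0.63, and without TOM-1 control replicate 3 the interval was 0.10 to 0.57 (edgeR adjusted p = 0.190). SRSF2 was at 337, 307 and 346 CPM in control and 288, 289 and 293 CPM with ADI-PEG20, again without overlap, with a log2 fold change of -0.19 and a 95% interval of -0.49 to 0.12. The interval of SRSF2 without TOM-1 control replicate 3 was -0.32 to -0.06 (edgeR adjusted p = 0.191). CLK4 and SRSF2 were the 2 members without overlap between the RS4;11 groups, against 16.8% of all tested genes.

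The other members overlapped between the RS4;11 groups. CLK1 was at 80.6, 79.8 and 94.4 CPM in control and 80.9, 78.7 and 103 CPM with ADI-PEG20, and replicate 3 was the highest library of each group. Its log2 fold change was 0.04 (95% interval -0.27 to 0.35), so the rise seen in TOM-1 lay outside the interval. CLK2 was at 99.0, 87.1 and 111 CPM and then 90.7, 90.8 and 111 CPM, with a log2 fold change of -0.02 (95% interval -0.31 to 0.27). SRSF3 went from 749, 694 and 628 to 678, 671 and 581 CPM and SRSF7 from 327, 303 and 295 to 297, 298 and 302 CPM. Their intervals, -0.43 to 0.23 for SRSF3 and -0.30 to 0.22 for SRSF7 on the log2 scale, did not reach the falls measured in TOM-1. Of the remaining genes, CLK3 had a log2 fold change of -0.11, SRSF5 0.05, SRSF6 -0.05 and TRA2A -0.12. Each of the 10 had an edgeR adjusted p of 1 with all libraries.

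**Figure D3:**
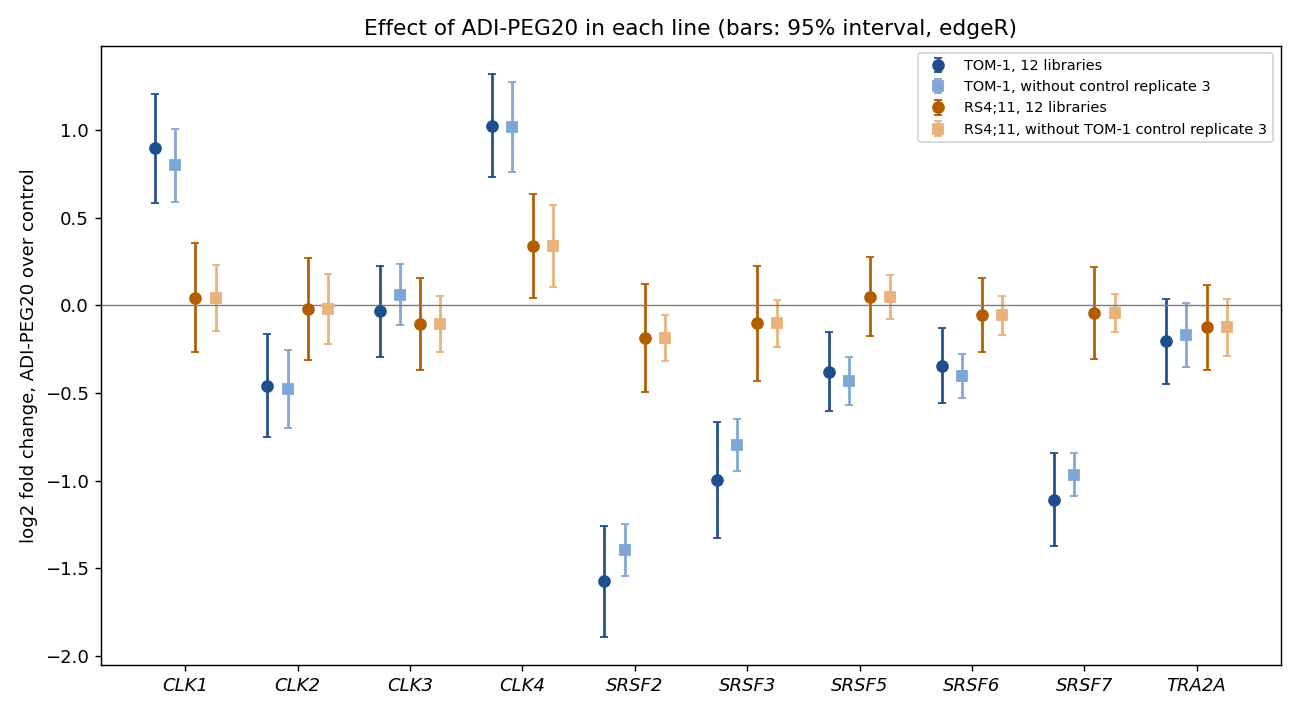
Log2 fold change of each gene with ADI-PEG20 against control in TOM-1 and in RS4;11, with 95% intervals from the edgeR fit, from the 12 libraries and from the 11 left without TOM-1 control replicate 3. SRSF2 lies at -1.57 in TOM-1 and -0.19 in RS4;11, and CLK1 at 0.90 and 0.04.

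The difference between the lines' responses was tested as an interaction. With all libraries, 5 of the 10 genes passed, against 11.9% of all tested genes, and these were CLK1, CLK4, SRSF2, SRSF3 and SRSF7. The response of TOM-1 minus that of RS4;11 was 0.85 (SE 0.20, edgeR adjusted p = 0.0183) for CLK1 and 0.69 (SE 0.19, edgeR adjusted p = 0.0366) for CLK4 on the log2 scale. It was -1.39 (SE 0.20, edgeR adjusted p = 0.00136) for SRSF2, -0.89 (SE 0.21, edgeR adjusted p = 0.0189) for SRSF3 and -1.06 (SE 0.17, edgeR adjusted p = 0.00250) for SRSF7. Without TOM-1 control replicate 3, 8 of the 10 passed against 30.4% of all genes. CLK2 (-0.46, edgeR adjusted p = 0.0185), SRSF5 (-0.48, 2.33e-04) and SRSF6 (-0.35, 0.00196) then joined the 5, and CLK3 and TRA2A did not pass in either fit.

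The interaction of SRSF2 and of SRSF7 was called whichever of the 12 libraries was left out. That of SRSF3 was lost without TOM-1 treated replicate 2 or 3 or RS4;11 treated replicate 1, with edgeR adjusted p of 0.0510 to 0.0562. That of CLK1 was lost without TOM-1 treated replicate 2 or 3, RS4;11 control replicate 3, or RS4;11 treated replicate 1 or 2, with edgeR adjusted p of 0.0532 to 0.0727. That of CLK4 held in 2 of the 12 fits only, those without TOM-1 control replicate 1 or 3. The other 10 gave edgeR adjusted p of 0.0570 to 0.118 for CLK4.

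In control culture fewer of these genes were called between the lines than after treatment. With all libraries, 2 of the 10 were called, against 34.7% of all genes: CLK2, with a log2 difference of -0.57 (TOM-1 minus RS4;11, SE 0.13, edgeR adjusted p = 0.00549), and TRA2A, with -0.43 (SE 0.11, edgeR adjusted p = 0.0103). CLK2 was at 99.0, 87.1 and 111 CPM in RS4;11 control, each above the highest TOM-1 control library. TRA2A was at 70.6, 77.7 and 83.1 CPM in RS4;11 control, also above every TOM-1 control library. Without TOM-1 control replicate 3, 9 of the 10 were called, against 52.8% of all genes, and CLK3 was not. The 6 SR factors and CLK2 were then lower in TOM-1, with log2 differences from -0.18 for SRSF6 to -0.56 for CLK2, and CLK1 and CLK4 were higher, by 0.31 and 0.37 on the log2 scale. The 7 genes other than CLK2, TRA2A and CLK3 thus passed without that library and not with all 12. SRSF5 also passed without TOM-1 control replicate 2 (edgeR adjusted p = 0.0435), and CLK1 and CLK4 with offsets for transcript length (0.0468 and 0.0169).

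After 24 h with ADI-PEG20, 9 of the 10 genes differed between the lines, against 47.2% of all genes, and 10 of 10 without TOM-1 control replicate 3, against 62.9%. All 10 had no overlap between the lines, against 70.6%. CLK1 and CLK4 were higher in TOM-1, by 1.07 (edgeR adjusted p = 6.89e-05) and 1.05 (edgeR adjusted p = 5.01e-05). CLK2 and the 6 SR factors were lower, with log2 differences of -1.01 for CLK2 and from -0.51 (TRA2A) to -1.45 (SRSF2) for the factors. CLK3 was at 74.2, 75.1 and 77.4 CPM in treated TOM-1 and 62.0, 61.9 and 64.8 CPM in treated RS4;11, a log2 difference of 0.26 (edgeR adjusted p = 0.0902). It passed without TOM-1 control replicate 3 (edgeR adjusted p = 0.00508), a library that enters this comparison only through the shared spread and the filter.

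Levels of different genes were compared as CPM per kilobase of exonic length, so their order depends on the length used for each gene. SRSF2 and SRSF3 led in TOM-1 control at 105 ± 22.3 and 85.3 ± 19.7 (SD, n = 3), with overlapping libraries. SRSF7 followed at 66.9 ± 11.1, overlapping SRSF3. Then came SRSF6 at 47.2 ± 3.26 and SRSF5 at 40.2 ± 2.58. CLK1, CLK2 and TRA2A formed a lower group at 19.1 ± 2.31, 18.1 ± 1.75 and 16.3 ± 0.893, each overlapping its neighbour in the order. CLK3 and CLK4 were lowest, at 3.79 ± 0.491 and 3.11 ± 0.202, and overlapped. In TOM-1 control replicates 1 and 2 alone the order was the same, with means of 92.4 for SRSF2, 74.0 for SRSF3 and 60.5 for SRSF7, and the overlaps of SRSF3 with SRSF2 and SRSF7 and of CLK2 with TRA2A were absent. In RS4;11 control the order of the 5 leading SR factors was the same, CLK2 at 26.97 ± 3.24 stood above TRA2A at 21.9 ± 1.79, and CLK1 at 16.4 ± 1.58 came below both without overlap. With the length of the longest transcript instead, SRSF3 led SRSF2 in TOM-1 control, at 121, 129 and 182 against 102, 91.4 and 136 CPM per kilobase. SRSF5 then stood above SRSF6, at 71.8, 74.7 and 65.8 against 51.5, 52.6 and 46.2.

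The order changed in treated TOM-1. SRSF3 led at 42.7 ± 1.16, followed by SRSF6 at 37.1 ± 0.259, CLK1 at 35.6 ± 2.58 and SRSF2 at 35.2 ± 2.51 CPM per kilobase. Libraries of CLK1 overlapped those of SRSF6 and SRSF2. The level of CLK1 per kilobase was 0.127 to 0.227 times that of SRSF2 in the TOM-1 control libraries and 0.948 to 1.08 times in the treated ones. In RS4;11 this ratio was 0.140 to 0.159 in control and 0.159 to 0.205 with ADI-PEG20. The highest gene stood 33.7 times above the lowest in TOM-1 control and 11.6 times in treated TOM-1. CLK4 also passed CLK3 there, at 6.33 ± 0.298 against 3.70 ± 0.0824 CPM per kilobase, without overlap. With the length of the longest transcript, CLK1 was at 53.0, 57.7 and 61.3 CPM per kilobase in treated TOM-1. SRSF2 was then at 34.2, 39.5 and 36.8 and SRSF6 at 39.2, 39.4 and 39.8, so neither overlapped CLK1. The order and the ratios above therefore hold for exonic length only.

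Other genes of the splicing machinery were read from lists of the same kind for comparison. Among the other SR proteins, 7 of 8 were tested and 3 fell in TOM-1, 42.9% against 31.9% of all genes. None rose, and the median log2 fold change was -0.29. SRSF9 (-0.85, edgeR adjusted p = 0.00149) and SRSF1 (-0.72, 7.37e-04), both SR proteins that act in splice site choice, fell most. SRSF1 went from 200.2 ± 21.5 to 122 ± 6.09 CPM (SD, n = 3). The list of other kinases of SR proteins, protein phosphatase 1 and the importer held 16 genes, of which 2 rose and 2 fell, with a median of 0.16. DYRK1A, a kinase of the same larger group as the CLKs, rose by 1.11 (edgeR adjusted p = 0.00450), and TNPO3, which encodes transportin-SR, by 0.46. PPP1CA and PPP1CC, catalytic subunits of protein phosphatase 1, fell by 0.95 and 0.41 on the log2 scale, and PPP1CA by 0.51 without TOM-1 control replicate 3. These 4 calls, 25% of the list, compare with 31.9% of all genes. Without TOM-1 control replicate 3, 0 rose and 6 fell among the other SR proteins, 85.7% of those tested. Among the kinases, phosphatase and importer 5 rose and 6 fell, 68.8% of the list. The share over all genes was then 41.6%.

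Proteins of nuclear speckles and others rich in arginine and serine went both ways: 5 of 28 rose and 5 fell in TOM-1, with a median of 0.09. The 35.7% called is near the 31.9% of all genes. RSRC2 and RBM39 rose by 0.92 and 0.81 (edgeR adjusted p = 1.91e-04 and 5.02e-04). CLASRP, a protein that binds CLK4, and THRAP3 fell by 0.65 and 0.55, and CLASRP by 0.37 without TOM-1 control replicate 3. Of 26 hnRNP proteins, which often oppose SR proteins at exons, 1 rose and 13 fell (53.8% called), with a median of -0.39. HNRNPA1 fell by 1.70 (edgeR adjusted p = 4.92e-06) and HNRNPM by 1.39, while HNRNPLL rose by 1.37. Of 42 core spliceosome genes, 2 rose and 24 fell (61.9% called), with a median of -0.60. SNRPD2, a Sm protein, fell by 2.09, and by 1.41 without TOM-1 control replicate 3, and SNRPA by 1.60, or 0.97 without it. ZRSR2 and DHX16 rose by 0.67 and 0.32. Without that library, 6 speckle genes rose and 11 fell with a median of -0.12. In the same fit 1 hnRNP gene rose and 16 fell (65.4%), and 5 core genes rose and 28 fell (78.6%), against 41.6% of all genes.

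None of the 5 lists held a gene that passed in RS4;11 in either fit. With all libraries the interaction was called for 2 of 7 other SR proteins, 0 of 16 kinases, phosphatase and importer, 3 of 28 speckle genes, 11 of 26 hnRNP genes and 9 of 42 core genes, against 11.9% of all genes. Those called were lower apart from 2 speckle genes and 1 core gene. Leaving out TOM-1 control replicate 3 gave 4, 8, 16, 16 and 28 calls in the same order, against 30.4% of all genes. Of these, 2 of the kinases, phosphatase and importer, 5 speckle genes and 5 core genes were higher and the others lower. In control culture the named genes that were higher in TOM-1 than in RS4;11 included DYRK4, by 2.02, and those lower included SRPK3, a kinase of SR proteins known from muscle, SRSF8 and SRSF1, with log2 differences of -4.13, -0.43 and -0.34. HNRNPLL, a splicing regulator of lymphoid cells, and SNRPN, an imprinted Sm gene, had 0 counts in all 3 RS4;11 control libraries and were at least 487-fold and 375-fold higher in TOM-1 control. Leaving out TOM-1 control replicate 3 gave at least 540.2-fold for HNRNPLL and at least 196-fold for SNRPN. These bounds take 3 counts over the group as the limit that a count of 0 allows. After treatment TRA2B, the paralogue of TRA2A, and HNRNPA2B1 were lower in TOM-1, with log2 differences of -0.86 and -1.46, and HIPK2 and CDK13 were higher by 1.38 and 1.11.

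**Figure D4:**
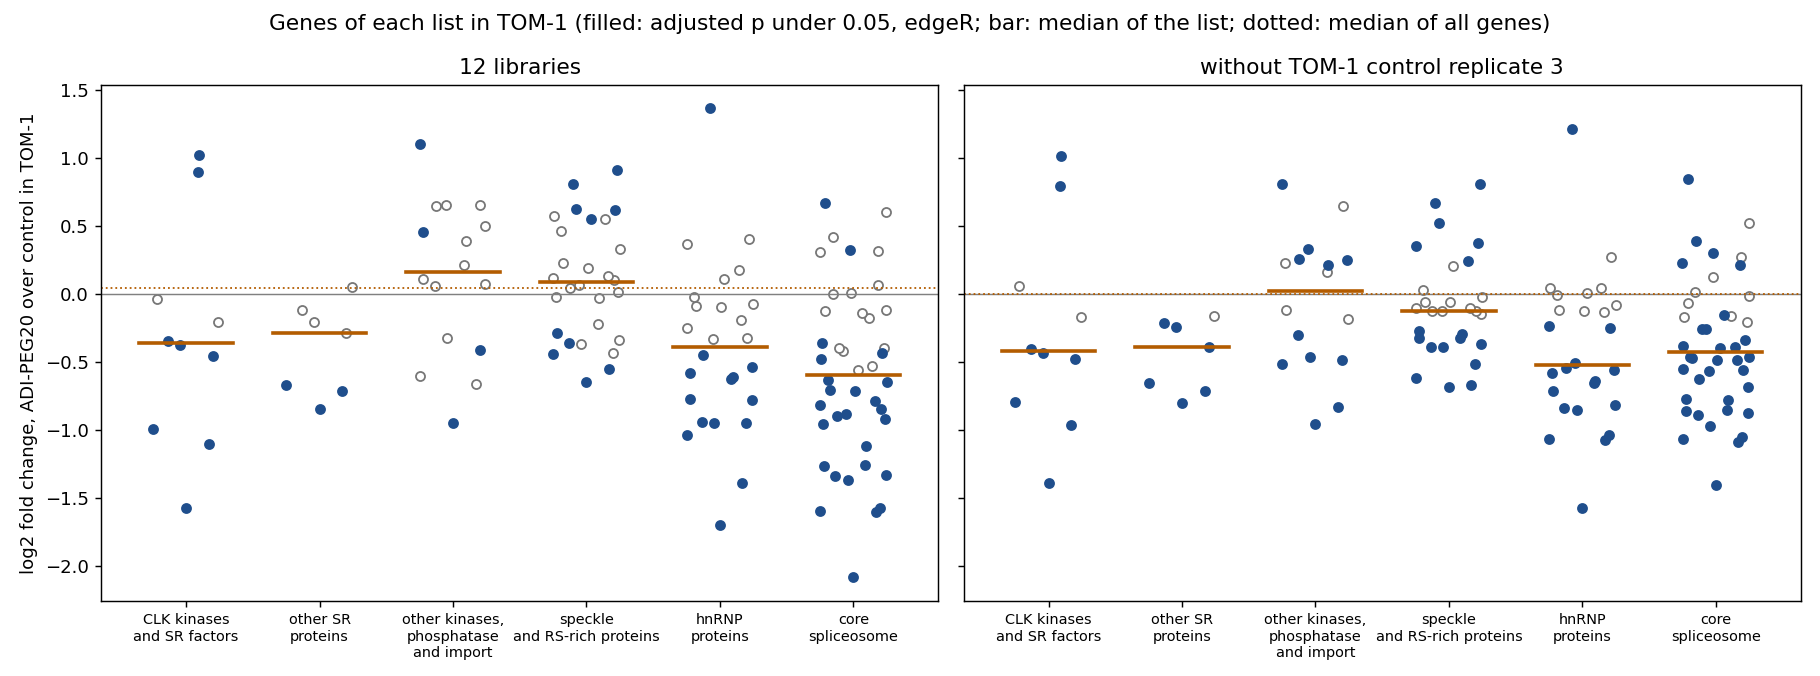
Log2 fold change with ADI-PEG20 in TOM-1 for each tested gene of the CLK kinases and SR factors described here and of the 5 other lists, with all 12 libraries (left) and without TOM-1 control replicate 3 (right). Filled points passed the edgeR threshold, bars are list medians and the dotted line is the median of all tested genes. The median is -0.36 for the 10 genes and -0.60 for the core spliceosome list on the left, and -0.42 and -0.43 on the right.

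Genes whose log2 CPM followed that of CLK1 were sought over the 11 libraries without TOM-1 control replicate 3. They were taken from 10531 genes with a mean of at least 5 CPM over all 12 libraries. The closest 5 were MAFG (Pearson r = 0.990), DGKE (0.989), DHRS2 (0.987), UBE2W (0.987) and DENND3 (0.985). The libraries share a split into treated TOM-1 and the rest, which alone gives high values, so r is given only as the measure of likeness. MAFG, a small MAF transcription factor, was at 106 ± 12.03 CPM in TOM-1 control, 192 ± 4.17 in treated TOM-1, 101 ± 6.82 in RS4;11 control and 102 ± 11.9 in treated RS4;11 (SD, n = 3). DHRS2, a short-chain dehydrogenase, had the lowest control level of the 5, at 2.00 ± 0.986 CPM in TOM-1 control and 61.5 ± 2.08 with ADI-PEG20. In RS4;11 it was at 0.731 ± 0.319 CPM in control and 1.03 ± 0.528 with ADI-PEG20. It reached the mean of 5 CPM only through the treated TOM-1 libraries, which also give it its high r.

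The members share a feature of their annotation that was not used to choose them. In GENCODE 29, 8 of the 10 have both a transcript marked for nonsense-mediated decay and one with a retained intron, against 25.1% of 19951 protein-coding genes. Such transcripts make up a median of 52.3% of a member's annotated transcripts, against 14.3% over those genes. The background takes in every protein-coding gene, tested here or not, and was not matched for the number of annotated transcripts. The members have from 2 (SRSF6) to 27 (CLK3). CLK1 has 2 transcripts of the former kind and 8 of the latter among 15, SRSF7 has 6 and 2 among 12, and SRSF6 has 1 and 0 among 2. CLK2 has neither kind. Annotated pseudogenes of the members had at most 18 counts in any library.

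The promoters were read from RefSeq (GRCh38.p14), as windows from 250 bases before to 50 after a transcript start. The table held 11 such windows for 8 of the 10 genes, all but SRSF2 and TRA2A. The letters TGATGNAA, a form of the element bound by ATF4 and CHOP in the amino acid response, were on neither strand of any of the 11, against 3.62% of all 35116 windows. The letters CACGTG, an E-box, were in the windows of CLK2 and CLK4 only, against 7.26% of all windows, and CCAAT was in 1 window of CLK3 and in that of SRSF3, against 34.6%. TGACGTCA, the full cyclic AMP element, was in none, against 1.85%. The last 3 motifs were chosen after the values had been seen. CLK2 and CLK4 are shown because they hold the same E-box and moved in opposite directions in TOM-1, and SRSF3 as 1 of the 2 genes, with CLK3, whose window holds CCAAT on each strand, and the one of them that fell in TOM-1. Each sequence is written 5′ to 3′ on the gene's strand, with the bases that GENCODE 29 places in an exon left out, and capitals mark CACGTG in CLK2 and CLK4 and CCAAT, or ATTGG on the other strand, in SRSF3. The coordinates are chr1:155273517-155273754 (minus strand), chr5:178627115-178627300 (minus strand) and chr6:36594112-36594352 (plus strand).
CLK2: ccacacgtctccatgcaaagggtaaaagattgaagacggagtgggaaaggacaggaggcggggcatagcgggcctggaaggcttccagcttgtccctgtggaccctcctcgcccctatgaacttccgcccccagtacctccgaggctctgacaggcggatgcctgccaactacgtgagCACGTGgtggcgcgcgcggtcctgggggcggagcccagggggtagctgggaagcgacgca
CLK4: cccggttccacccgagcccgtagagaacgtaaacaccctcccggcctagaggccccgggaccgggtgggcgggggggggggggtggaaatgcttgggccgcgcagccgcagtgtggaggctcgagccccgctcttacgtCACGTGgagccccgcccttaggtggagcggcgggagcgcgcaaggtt
SRSF3: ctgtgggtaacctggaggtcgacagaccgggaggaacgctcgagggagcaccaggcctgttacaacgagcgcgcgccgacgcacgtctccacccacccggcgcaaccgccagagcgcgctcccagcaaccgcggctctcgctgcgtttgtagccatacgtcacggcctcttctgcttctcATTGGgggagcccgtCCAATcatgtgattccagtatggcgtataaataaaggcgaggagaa
A match is a description of the letters and not of a bound site.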

How the data were processed

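The values are raw counts as the authors deposited them, whole reads per Ensembl gene with no normalization. Per the labels, total RNA from a column kit went through poly(A) selection before library preparation. The submitters' processing notes name STAR, SAMtools, featureCounts and hg38. Versions, the annotation release, the use of strand and the treatment of reads mapping to several genes are not given in the sources used here.

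Symbols were matched for 60463 identifiers. The tests ran in edgeR 4.0.16 under R 4.3.3: filterByExpr kept 17349 genes (18321 without TOM-1 control replicate 3), libraries were scaled by TMM, and 1 group-means model over all 12 libraries was tested with the quasi-likelihood F test, Benjamini-Hochberg adjustment over all tested genes and a threshold of 0.05. Tests covered 5 contrasts: treatment against control within each line, their difference, and TOM-1 against RS4;11 in each condition. CPM per kilobase used the exonic length in GENCODE 29. The members and lists were chosen with earlier results of these data known. Members are named whatever their values. From each list at most 2 genes per direction and contrast are named, the largest log2 fold changes that passed with a mean of at least 5 CPM and no overlap between the groups.

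Alternatives were DESeq2 size factors, no filter, the Wald test of DESeq2 1.42.0, voom with sample quality weights (limma 3.58.1), transcript length offsets, a replicate block, a model of only the 6 libraries compared, and each library left out. The order of levels and the lower bounds without TOM-1 control replicate 3 were chosen after seeing the data. A comparison of protein sequences was not made here. Figures were drawn with matplotlib 3.10.9.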

Additional observations from a re-analysis of the deposited data

Results flagged for a closer look

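The response to ADI-PEG20 differed between the lines for 5 of the 10 genes in the edgeR interaction test over all 12 libraries, against 11.9% of all tested genes, and for 8 of the 10 without TOM-1 control replicate 3, against 30.4%. The log2 fold change in TOM-1 minus that in RS4;11 was 0.85 for CLK1, 0.69 for CLK4, -1.39 for SRSF2, -0.89 for SRSF3 and -1.06 for SRSF7. All 3 treated TOM-1 libraries lay outside the range of the TOM-1 controls for each of these genes, and 46.2% of all tested genes likewise had no overlap. The call for CLK4 was the least stable, as it held in 2 of the 12 fits that leave out 1 library.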

How the results depend on the processing

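Of the 190 log2 fold changes recomputed for TOM-1, 181 kept their call or its absence and 9 lost a call, all of CLK2, SRSF5 or SRSF6. No called change reversed its sign. CLK3, which was not called, went from -0.03 to 0.06 without TOM-1 control replicate 3. The 6 genes lower in TOM-1 became 3 with no filter and 3 in a fit on the 6 libraries alone, and 4 to 6 when each library was left out in turn. The share of all tested genes called in TOM-1, 31.9% with the design above, was then 17.3%, 17.2% and 21.7% to 41.6%. In RS4;11 all 190 kept the absence of a call. For the interaction, the 2 higher genes became 1 with no filter, 1 with length offsets and 0 to 2 with a library left out. The 3 lower ones became 5 with the DESeq2 Wald test, 5 with length offsets, 6 with quality weights and 2 to 6 with a library left out. The share of all tested genes called for the interaction was 11.9% in the design above and 7.18% with no filter. It was 20.0% with the Wald test, 15.3% with length offsets, 33.8% with quality weights and 6.39% to 30.4% with a library left out. Between the untreated lines, no gene was higher in TOM-1 in the design above, and 1 was with the DESeq2 Wald test, 2 with length offsets, 2 with quality weights and 0 to 2 with a library left out. The 2 lower there became 1 with no filter, 4 with the Wald test, 7 with quality weights, 0 in the fit on 6 libraries and 2 to 7 with a library left out. Of all tested genes, 34.7% were called between the untreated lines in the design above and 18.7% with no filter. The share was 32.8% with the Wald test, 38.1% with length offsets, 57.9% with quality weights and 23.0% in the fit on 6 libraries. Without TOM-1 control replicate 3 it was 52.8%, and the other shares with a library left out are not given here. TOM-1 control replicate 3 had a weight of 0.0352 in the fit with quality weights. The cause of the shifts between these settings was not tested. Between the treated lines, 187 of 190 kept their call and 3 gained one, all of CLK3. With lengths of the longest transcript, the share of CLK4 differed by 4.48 percentage points in TOM-1 and 1.71 in RS4;11 with treatment, and between the treated lines CLK1 differed by 23.9, CLK2 by -28.9 and CLK4 by 5.46. The replicate number as a block left the counts of members called in TOM-1 at 2 higher and 6 lower and changed no member's call. The correlation of deviations between same-numbered libraries was -0.062 to 0.145 over 12 pairs, against -0.095 to 0.070 for other numbers. Between control and treated TOM-1 it was -0.027, -0.012 and -0.062 for replicates 1, 2 and 3. Between control and treated RS4;11 it was 0.057, 0.031 and 0.145, so replicate 3 there exceeded every pair of other numbers. The numbers were not taken as a pairing. A planned comparison of protein composition was not run. With 412 or more counts per member and library, counting error is small, and 3 libraries per group limit the precision.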
